A study of Homo sapiens with 12 samples.

Results

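Chromosomes 21 and 22 are acrocentric, with the centromere close to an end, so that each has a very short arm and a gene-bearing long arm. This account describes the hnRNPK ChIP-seq peaks called on them, which numbered 916 of the 16214 peaks called on the 24 chromosomes. They were 419 peaks on chromosome 21 and 497 on chromosome 22 in 6 peak lists, selected on the chromosome named for each peak. These chromosomes were chosen because earlier counts of the same lists showed many peaks there in 1 control list, so the number of peaks on them is a description here and carries no test. Peaks were divided by midpoint into those on the short arm and pericentromere (before 14 Mb on chromosome 21 and before 18 Mb on chromosome 22), called short arm peaks below, and those on the long arm.

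The cells were HCT116, an established human colorectal carcinoma line, and every group overexpressed hnRNPK. In CRLM1-OE the long noncoding RNA CRLM1 was overexpressed as well, while the empty control and the antisense control carried control constructs. Each of the 3 groups had 2 IP libraries, each with an input library, and 1 list of peaks per IP library. The lists give no read counts, so the depth of each library is unknown, and all cells were of 1 line with forced expression of the precipitated protein.

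hnRNPK is a nuclear protein whose KH domains bind cytosine-rich single-stranded RNA and DNA, and it is known at promoters as well as on transcripts. The short arms of the acrocentric chromosomes carry the ribosomal RNA gene arrays and blocks of satellite DNA, which is short sequence repeated in tandem, including satellites built on the pentamer GGAAT. Much of this sequence exists in more copies in a cell than in the reference assembly. The long arms hold nearly all of the protein-coding genes, with 651 on the long arms and 16 on the short arms in the GENCODE annotation, and the chromosome 22 long arm and distal chromosome 21 are rich in GC and in genes.

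Both kinds of sequence are shown here from hg38, as the 300 bases at the middle of a region or peak, on the plus strand. A region merges overlapping peaks of the lists, so its middle need not lie in every one of them. Capitals mark the pentamer GGAAT or its reverse complement ATTCC, and the cytosine-rich motifs CCCTCCC and CCCCC on either strand, which may overlap. The regions from 2 places on each arm that were called in most lists come first, with ties broken by the mean score percentile of their peaks. On the short arm 4 regions were called in 5 lists, and those shown by that order were chr21:8219813-8220321 and chr21:8991245-8996745, and the bases shown are chr21:8219917-8220216 and chr21:8993845-8994144. In the second of these regions the highest CRLM1-OE peaks, chr21:8991964-8993759 in replicate 1 and chr21:8991917-8993705 in replicate 2, end before the bases shown. On the long arm they were chr22:50307176-50308520, at the start of PLXNB2 and called in 5 lists, and chr22:39522498-39524578, downstream of ATF4 and called in 3 lists, with chr22:50307698-50307997 and chr22:39523388-39523687 shown. The highest-scoring peaks of empty control replicate 2 on each chromosome follow, because that list held the most peaks here, with chr21:10717344-10717643 and chr22:12693727-12694026 shown.
Short arm region 1: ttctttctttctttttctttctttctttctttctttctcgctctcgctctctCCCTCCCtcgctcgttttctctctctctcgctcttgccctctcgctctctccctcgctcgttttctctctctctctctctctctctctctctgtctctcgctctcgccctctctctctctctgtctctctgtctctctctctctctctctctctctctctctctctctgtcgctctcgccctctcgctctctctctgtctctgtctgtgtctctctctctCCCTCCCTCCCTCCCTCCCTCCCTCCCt
Short arm region 2: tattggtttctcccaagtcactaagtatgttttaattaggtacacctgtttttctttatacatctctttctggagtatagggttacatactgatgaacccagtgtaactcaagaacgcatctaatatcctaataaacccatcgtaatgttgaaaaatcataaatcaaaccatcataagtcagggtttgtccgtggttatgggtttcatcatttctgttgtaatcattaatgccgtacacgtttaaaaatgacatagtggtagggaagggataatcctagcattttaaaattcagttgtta
Long arm region 1: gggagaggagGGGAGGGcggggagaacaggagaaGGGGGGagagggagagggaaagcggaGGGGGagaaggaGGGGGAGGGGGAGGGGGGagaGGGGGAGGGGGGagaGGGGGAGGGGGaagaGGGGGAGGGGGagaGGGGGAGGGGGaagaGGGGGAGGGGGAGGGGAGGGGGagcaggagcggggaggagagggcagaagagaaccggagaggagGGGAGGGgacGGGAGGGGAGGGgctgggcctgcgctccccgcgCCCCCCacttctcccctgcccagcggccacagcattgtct
Long arm region 2: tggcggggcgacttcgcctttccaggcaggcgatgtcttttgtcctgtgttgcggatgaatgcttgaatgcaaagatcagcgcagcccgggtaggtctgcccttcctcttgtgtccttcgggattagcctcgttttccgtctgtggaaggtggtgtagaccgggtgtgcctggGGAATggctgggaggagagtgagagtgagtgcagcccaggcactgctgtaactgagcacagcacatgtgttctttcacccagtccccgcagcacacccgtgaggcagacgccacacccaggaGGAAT
Highest peak on chromosome 21: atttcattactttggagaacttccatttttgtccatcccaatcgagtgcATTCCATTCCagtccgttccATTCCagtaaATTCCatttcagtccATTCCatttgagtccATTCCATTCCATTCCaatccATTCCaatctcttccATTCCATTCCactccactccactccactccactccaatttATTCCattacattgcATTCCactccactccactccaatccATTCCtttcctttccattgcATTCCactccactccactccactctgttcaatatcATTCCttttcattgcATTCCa
Highest peak on chromosome 22: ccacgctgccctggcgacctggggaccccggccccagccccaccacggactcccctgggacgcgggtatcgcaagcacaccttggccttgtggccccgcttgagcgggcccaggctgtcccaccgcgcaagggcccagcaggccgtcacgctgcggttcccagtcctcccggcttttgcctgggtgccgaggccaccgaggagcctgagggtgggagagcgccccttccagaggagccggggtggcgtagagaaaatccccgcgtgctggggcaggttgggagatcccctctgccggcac
The first short arm sequence was 92.7% C and T on the strand shown, with 7 matches to the cytosine-rich motifs. The PLXNB2 sequence was purine-rich on the strand shown, with 34 matches and a GC content of 73.7%. The highest peak on chromosome 21 held 17 copies of the pentamer in 300 bases, while the highest peak on chromosome 22 held no match to any of the motifs and had a GC content of 72.0%.

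The second empty control list held the most peaks on both chromosomes. Chromosome 21 had 129 and 40 peaks in the CRLM1-OE lists, 16 and 164 in the empty control lists, and 34 and 36 in the antisense control lists. Chromosome 22 had 158 and 61, 18 and 179, and 38 and 43 in the same order. The empty control lists lay at opposite ends, so their range overlapped with both other groups. The CRLM1-OE and antisense control counts did not overlap with each other on either chromosome, but these lists differ in length. Over all chromosomes CRLM1-OE had 4339 and 3163 peaks and the antisense control 2262 and 2224. As shares of each list these groups overlapped on both chromosomes. CRLM1-OE replicate 2 had 1.26% on chromosome 21 and 1.929% on chromosome 22, below 1.62% and 1.933% in antisense control replicate 2. CRLM1-OE replicate 1 was above both antisense control lists, at 2.97% and 3.64%. As a share of its own list, chromosomes 21 and 22 together took 13.2% in empty control replicate 2 and 6.61% in CRLM1-OE replicate 1, against 2.10% to 3.55% in the other 4 lists. These chromosomes make up 2.70% of the ungapped sequence of the 24 chromosomes.

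The excess in empty control replicate 2 lay on both arms. Short arm peaks numbered 40 and 11 in CRLM1-OE, 7 and 75 in the empty control, and 9 and 13 in the antisense control. Of these, 9 and 1, 0 and 6, and 3 and 3 lay on chromosome 22 from 17 to 18 Mb, next to the boundary. Long arm peaks numbered 247 and 90, 27 and 268, and 63 and 66. Per ungapped Mb, empty control replicate 2 had 5.36 peaks on the short arms and 4.11 on the long arms, against 0.792 on the other chromosomes. CRLM1-OE replicate 1 had 2.86 and 3.79, against 1.42. In the other 4 lists the ratio of the long arm density to that on the other chromosomes ran from 0.746 to 1.35, and that of the short arm from 0.734 to 1.24.

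**Figure D1:**
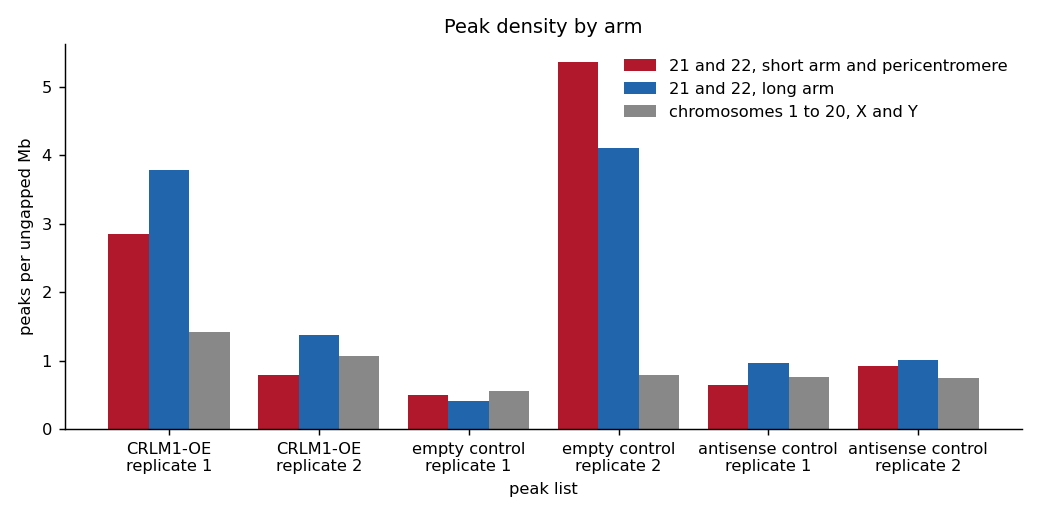
Peaks per ungapped Mb (vertical axis) in each of the 6 peak lists (horizontal axis) for the short arms and pericentromeres of chromosomes 21 and 22, their long arms, and the other chromosomes; each bar is 1 list and has no error bar. Empty control replicate 2 stands at 5.36 and 4.11 on the arms against 0.792 elsewhere, and CRLM1-OE replicate 1 is the other list with both arms above the other chromosomes by a wide margin.

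At the mean share of a list that the other 4 lists gave to each arm, empty control replicate 2 would hold 11.5 short arm and 66.9 long arm peaks. It held 63.5 and 201 more, so 76.0% of the surplus lay on the long arms. For CRLM1-OE replicate 1 the surplus was 20.9 and 136 peaks, of which 86.7% lay on the long arms. Chromosome 22 was the densest of the 24 chromosomes in both lists, and chromosome 21 ranked 2 in empty control replicate 2 and 4 in CRLM1-OE replicate 1. Among the other chromosomes the densest in both lists was the gene-rich chromosome 17, with 2.83 and 3.46 peaks per Mb.

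Short arm peaks made up 13.9% and 10.9% of the peaks on these chromosomes in CRLM1-OE, 20.6% and 21.9% in the empty control, and 12.5% and 16.5% in the antisense control. The short arms are 17.7% of the ungapped sequence of the 2 chromosomes. Both empty control lists were above the other 4, although they had 34 and 343 peaks here, and the 95% Wilson interval of the first, which covers counting error only, ran from 10.3% to 36.8%. The difference of CRLM1-OE from the empty control was -8.81 percentage points (12.4% ± 2.15 against 21.2% ± 0.903, SD, n = 2, two-sided exact permutation test over libraries, p = 0.333, adjusted p = 0.50). That of the antisense control from the empty control was -6.75 points (14.5% ± 2.80, exact permutation p = 0.333, adjusted p = 0.50), and that of CRLM1-OE from the antisense control was -2.06 points (exact permutation p = 0.667, adjusted p = 0.80). A p of 0.333 is the smallest that 2 lists against 2 can give, so no difference between groups could pass 0.05, and the p-values were adjusted over 6 group differences. With peaks above the median score of their list only, the differences from the empty control were larger, at -17.2 points for CRLM1-OE and -14.1 for the antisense control (exact permutation p = 0.333 for each). Without the peaks on pentamer satellite described next, CRLM1-OE minus the empty control came to -1.90 points.

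Part of the short arm peaks lay on satellite with a 5-base period. Sequence was taken to have a 5-base period when at least 50% of the bases in a 1000-base window around the peak matched the base 5 positions on. The count was 18 of 40 short arm peaks in CRLM1-OE replicate 1 and 5 of 11 in replicate 2, 4 of 7 and 51 of 75 in the empty control, and 3 of 9 and 8 of 13 in the antisense control. The share was lowest, at 33.3%, in antisense control replicate 1 and highest in empty control replicate 2, against 1.44% of windows at 10 kb steps along the short arms. Over all lists it was 89 of 155, and 38 of 80 (47.5%) without empty control replicate 2. At least 3 tandem copies of GGAAT itself were found in 15 and 3 of the short arm peaks in CRLM1-OE, 4 and 43 in the empty control, and 3 and 7 in the antisense control. No long arm peak of any list had such a period (0 of 761), nor did any window of the long arms. The longer period of the alpha satellite of centromeres was found in 25.9% of the short arm windows but in at most 4 short arm peaks of any list.

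Many of these satellite peaks lay in 1 Mb of chromosome 21. It held 56 of the 89 over all lists, and 20 of 38 without empty control replicate 2. On chromosome 21 between 10 and 11 Mb, empty control replicate 2 had 39 peaks, of which 36 had the 5-base period. They lay between bases 10652919 and 10764752, a stretch of 112 kb of which they covered 38.7 kb, and the highest-scoring of them had the deposited score 725.18, against a lowest score of 50 in the lists. The same Mb held 13 peaks in CRLM1-OE replicate 1, 3 in CRLM1-OE replicate 2, 3 in empty control replicate 1, and 1 and 4 in the antisense control. That Mb was the fullest bin on these chromosomes in empty control replicate 2, and empty control replicate 1 had as many peaks, 3, in a long arm bin. It was second in CRLM1-OE replicate 1 and in antisense control replicate 2. Of the peaks with the 5-base period on all 24 chromosomes, 21.2% and 15.6% lay on these chromosomes in CRLM1-OE, 26.7% and 35.7% in the empty control, and 11.5% and 22.9% in the antisense control. With all 5-base period peaks removed, these chromosomes still held 11.9% of empty control replicate 2 and 6.32% of CRLM1-OE replicate 1, against 1.87% to 3.24% of the other lists.

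Short arm peaks scored higher than long arm peaks within every list. Their median score percentile, taken among all peaks of the same list, was 82.8 and 79.3 in CRLM1-OE, 83.7 and 91.9 in the empty control, and 79.3 and 79.7 in the antisense control. Long arm peaks had medians of 44.9 and 57.7, 39.0 and 51.7, and 43.0 and 50.3. The mean difference was 35.0 points (SD 8.29, n = 6 lists, higher in 6 of 6, exact sign-flip permutation test, two-sided, p = 0.0313, adjusted p = 0.0313 over 6 measures), which is the smallest p that 6 lists allow. In the same comparison short arm peaks were wider by 213 bp, lower in GC (-4.32 points) and less often at a gene start (-7.66 points), each in 6 of 6 lists with the same exact permutation p = 0.0313 and adjusted p. This comparison of the arms was added after the data had been seen. The arms themselves differ in the same direction in GC content and in gene starts. Short arm sequence is 40.8% GC and 3.94% of it lies within 1 kb of a gene start, against 44.6% and 5.58% of long arm sequence. Whether the peaks differ beyond their sequence was not tested. Long arm peaks were close to the middle of their lists, also in empty control replicate 2. Taking the 3 best-scoring peaks per list on these chromosomes, 18 in all, 15 were short arm peaks. The 3 on the long arms were chr22:39522498-39524578 past ATF4 (score 211.54) and chr22:39309969-39312301 beyond the end of RPL3 (173.25) in CRLM1-OE replicate 2, and chr22:18024109-18024903 at the start of MICAL3, a flavin monooxygenase that acts on actin, in antisense control replicate 2 (101.92), which lies just past the 18 Mb boundary.

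**Figure D2:**
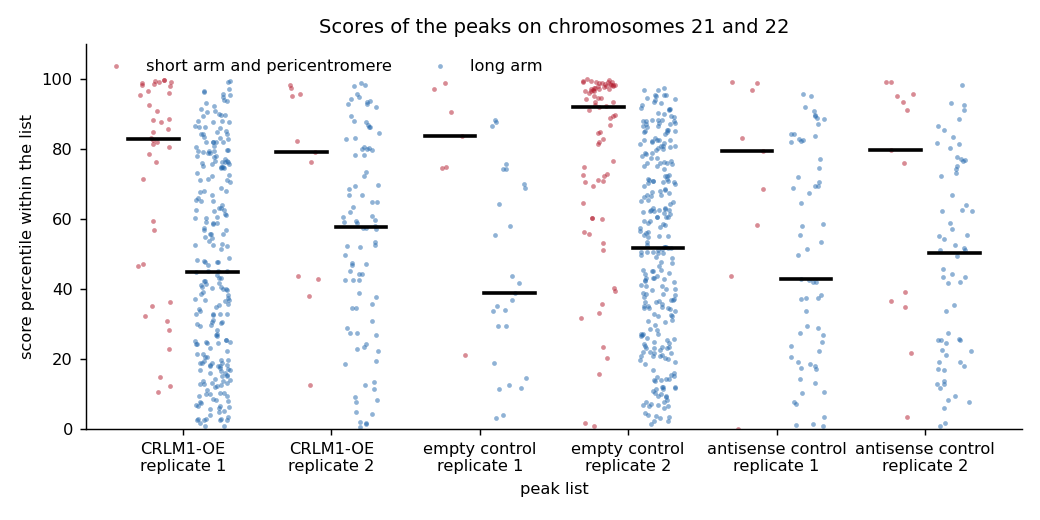
Score percentile within the list (vertical axis) for every peak on chromosomes 21 and 22, by list (horizontal axis) and arm; each point is a peak and each black line the median. Short arm medians lie between 79.3 and 91.9 and long arm medians between 39.0 and 57.7.

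Few of the peaks were on sequence with another exact copy in the assembly. Of the 64-base windows in short arm peaks, 2.32% to 9.15% occurred more than once on the 24 chromosomes, against 0.182% to 0.658% in long arm peaks, a difference of 5.26 points (SD 2.57, n = 6 lists, higher in 6 of 6, exact sign-flip permutation p = 0.0313, adjusted p = 0.0313). Merging peaks that shared 1 base or more across lists gave 825 regions, 94 on the short arms and 731 on the long arms. Aligned to the 24 chromosomes and the unlocalised and unplaced sequences, 8 of the 94 short arm regions and 0 of the 731 long arm regions matched another place over at least 50% of their length at 90% identity or more. How many copies the cells hold beyond the assembly was not tested.

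Short arm regions recurred across lists. Of the 94, 25 were called in 2 or more lists (26.6%, 95% Wilson interval 18.7% to 36.3%), 17 in 3 or more and 4 in 5. The interval treats regions as independent, but many of the recurrent ones lay close together between bases 10658167 and 10753630 of chromosome 21. On the long arm 24 of 731 were called in 2 or more lists (3.28%, interval 2.22% to 4.84%), beside 2.92% of the regions on all 24 chromosomes (percent called, 452 of 15464). Pooled over lists, the long arm share was thus near the background, but the lists differed. In CRLM1-OE replicate 1, 4.86% of long arm regions were also in another list, against 6.52% on the other chromosomes. In empty control replicate 2 it was 4.10% against 8.62%. In the other 4 lists the long arm share was the higher, at 9.09% to 17.8% against 4.98% to 7.40%. Each of the 25 recurrent short arm regions was called in empty control replicate 2 and 23 of them in CRLM1-OE replicate 1. These 2 lists also shared the narrowest peaks, with medians over all chromosomes of 516 and 506 bp against 662 to 747 bp in the other lists. They had 23 of the 84 short arm regions found in either in common, which was 33.3% of the regions of the first and 60.5% of those of the second. Without empty control replicate 2, the number of regions on these chromosomes called in 2 or more lists went from 49 to 32.

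Of the 25 recurrent short arm regions, 21 lay on chromosome 21 and 17 had at least 50% of bases matching at a period of 5. Of these 17, 2 were called in 5 lists, the most of any. The region chr21:10715547-10719392 was called in every list but antisense control replicate 1. Its highest score was 191.2 and 55.89 in CRLM1-OE, 67.94 and 725.18 in the empty control, and 62.61 in antisense control replicate 2. The other, chr21:7257813-7259602, was called in every list but empty control replicate 1, with scores of 67.05, 55.02, 200.76, 67.77 and 114.3 in CRLM1-OE 1 and 2, empty control 2, and antisense control 1 and 2. Both are intergenic in the annotation. On chromosome 22, chr22:10716628-10717874 and chr22:10726774-10727994 were of the same type and were each called in both empty control lists and in 1 other list.

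Other recurrent short arm regions lay among the ribosomal RNA genes of chromosome 21. The region chr21:8219813-8220321, a CT-rich stretch 7089 bases past the end of RNA5-8SN2, which encodes the 5.8S ribosomal RNA, scored 179.0 and 141.52 in CRLM1-OE, 88.27 and 322.71 in the empty control and 104.76 in antisense control replicate 1. It was not called in antisense control replicate 2. The region chr21:8234035-8234967, which was 87.4% pyrimidine or purine on 1 strand, scored 264.32 and 113.84 in CRLM1-OE, 400.11 in empty control replicate 2 and 86.2 in antisense control replicate 2. Within the span from the first to the last annotated 5.8S gene of chromosome 21, the lists had 5 and 2 peaks in CRLM1-OE, 1 and 5 in the empty control and 1 in each antisense control list. Peaks there were called in every list, and the empty control counts overlapped with those of both other groups. The CRLM1-OE and antisense control counts did not overlap, but the CRLM1-OE lists were longer. Over all chromosomes they held 4339 and 3163 peaks, against 2262 and 2224 in the antisense control. The counts in this span are few and were not scaled to list length, so no group difference is read from them. The region chr21:8991245-8996745, called in 5 lists with no protein-coding gene within its reach, was on sequence without the 5-base period (26.4% of bases matching) and scored 302.41 and 186.31 in CRLM1-OE, 347.17 in empty control replicate 2, and 55.52 and 79.6 in the antisense control. By rank within the list these were percentiles 99.6 and 98.4, 99.2, and 43.8 and 93.5, so only antisense control replicate 1 was far below the others.

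**Figure D3:**
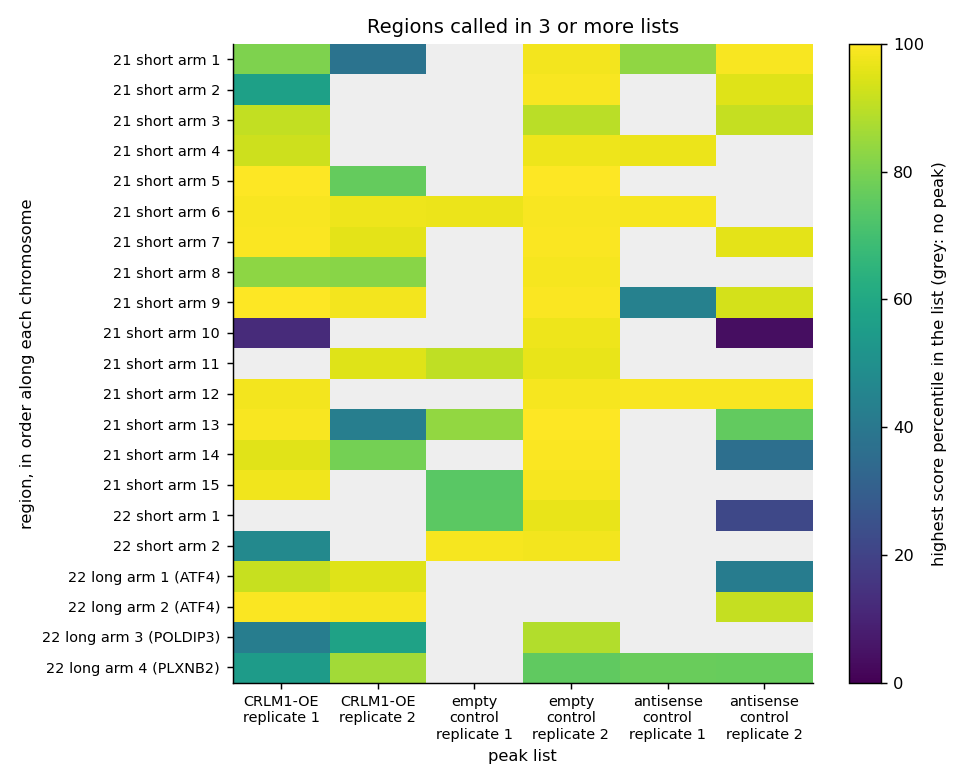
Regions of chromosomes 21 and 22 called in 3 or more lists (rows, in order along each chromosome and arm) against the 6 lists (columns), coloured by the highest score percentile of a peak of that list in the region; grey means no peak. All 17 short arm rows are filled in empty control replicate 2, and 2 of the 4 long arm rows are.

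The long arm peaks of empty control replicate 2 were spread over the arms and were densest where GC content was high. In 1 Mb bins, 61 of the 66 long arm bins held a peak in that list and 62 in CRLM1-OE replicate 1, against 43 in CRLM1-OE replicate 2, 20 in empty control replicate 1, and 41 and 40 in the antisense control. Its fullest long arm bins were chromosome 21 from 45 to 46 Mb, with 19 peaks, and chromosome 22 from 19 to 20 Mb, with 17. Ordered by GC content and divided in 3 sets of 22 bins, the long arm bins held 1.82, 3.94 and 6.62 peaks per Mb in empty control replicate 2, from the lowest set (34.6% to 42.2% GC) to the highest (48.5% to 54.3%). The ratio of the highest to the lowest set was 3.64 there, 3.08 and 3.76 in the CRLM1-OE lists, 1.03 in empty control replicate 1, and 1.60 and 1.98 in the antisense control. The number of protein-coding gene starts rose over the same sets, from 3.36 to 9.63 and 17.1 per Mb, so these sets alone do not separate GC content from gene density. Bins of like GC content but unlike gene density were not compared, so which of the 2 goes with the peaks was not tested.

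**Figure D4:**
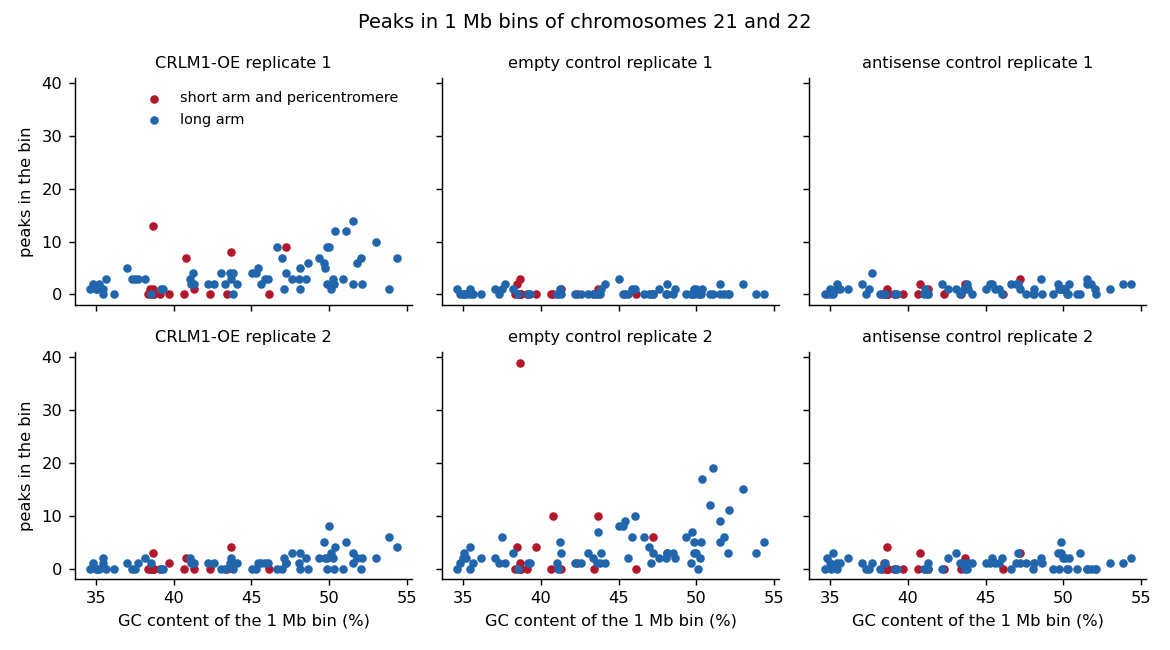
Number of peaks in each 1 Mb bin of chromosomes 21 and 22 (vertical axis) against the GC content of the bin in percent (horizontal axis), 1 panel per list and 1 point per bin, coloured by arm. The bin with 39 peaks in empty control replicate 2 is a short arm bin of 38.7% GC, while its fullest long arm bins, with 19 and 17 peaks, are of 51.1% and 50.3% GC.

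Median GC content of the peaks on these chromosomes was above that of the list's other peaks in 6 of 6 lists, by 5.46 points (46.8% ± 3.46 against 41.3% ± 2.21, SD, n = 6 lists, exact sign-flip permutation p = 0.0313, adjusted p = 0.0938 over 6 measures). After the adjustment this did not pass 0.05, and the measure was added after the data had been seen. The long arms themselves are 44.6% GC and the other chromosomes 40.8%.

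The share of long arm peaks at gene starts was lowest in the 2 empty control lists. A peak was TSS-proximal when its midpoint was within 1 kb of the transcription start site of any annotated gene, and 5.58% of long arm sequence is. The count was 25 of 247 (10.1%) and 21 of 90 (23.3%) in CRLM1-OE, 1 of 27 (3.70%) and 16 of 268 (5.97%) in the empty control, and 10 of 63 (15.9%) and 14 of 66 (21.2%) in the antisense control. The empty control lists were lowest on the other chromosomes too, with 4.29% and 6.85% against 8.58% to 15.6% in the other 4. There CRLM1-OE, at 10.0% and 15.6%, was above the antisense control, at 8.58% and 9.84%. On the long arms the empty control lists did not overlap with either group, although the Wilson interval of the first ran from 0.657% to 18.3%. CRLM1-OE was 11.9 points above the empty control (16.7% ± 9.34 against 4.84% ± 1.60, SD, n = 2, exact permutation p = 0.333, adjusted p = 0.50) and the antisense control 13.7 points above it (18.5% ± 3.78, exact permutation p = 0.333, adjusted p = 0.50). CRLM1-OE and the antisense control differed by -1.82 points (exact permutation p = 1, adjusted p = 1), a difference that turned to 2.95 with gene starts within 5 kb, to 4.79 without CRLM1-OE replicate 1 and to 0.854 without antisense control replicate 2.

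The share near gene starts in empty control replicate 2 was close to that of the long arm sequence itself and to the 6.85% in the rest of its list. Its Wilson interval, 3.71% to 9.48%, included both. In the same list 56.3% of long arm midpoints lay in introns, 23.9% in intergenic sequence and 9.70% within 10 kb upstream of a gene, where the sequence has 58.2%, 23.5% and 10.5%. Midpoints in 5 prime UTRs made up 2.43% and 7.78% in CRLM1-OE, 0% and 2.24% in the empty control, and 4.76% and 4.55% in the antisense control, from at most 7 peaks a list, where the long arm sequence has 0.479%. Over all 6 lists the TSS-proximal share on these chromosomes was 3.03 points above that on the others (SD 4.84, higher in 3 of 6 lists, exact sign-flip permutation p = 0.25, adjusted p = 0.375), so no difference was detected. Peak width (-8.42 bp, adjusted p = 0.375), score percentile (3.83 points, adjusted p = 0.375) and multi-copy share (0.323 points, adjusted p = 0.406) also did not pass the exact permutation test.

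**Figure D5:**
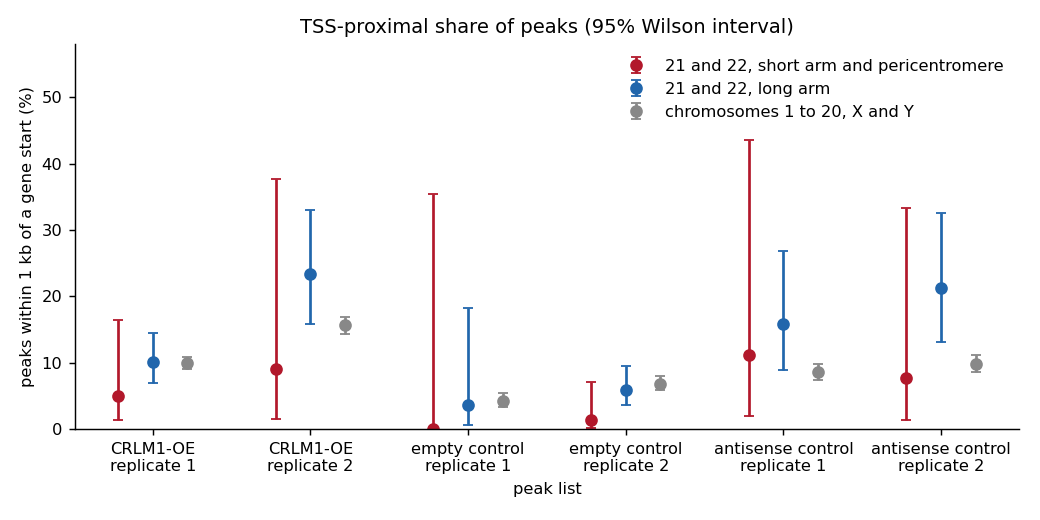
Percent of peaks with a midpoint within 1 kb of a gene start (vertical axis) in each list (horizontal axis), for both arms of chromosomes 21 and 22 and for the other chromosomes; bars are 95% Wilson intervals and cover counting error only. The long arm values are 3.70% and 5.97% in the empty control lists and 10.1% to 23.3% in the other 4.

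Cytosine-rich motifs were counted in the 300 bases around each midpoint. CCCCC or its complement was present in 44.1% and 47.8% of long arm peaks in CRLM1-OE, 25.9% and 38.8% in the empty control, and 50.8% and 36.4% in the antisense control, beside 31.5% of windows of that length at 10 kb steps along the long arms. CCCTCCC was present in 16.6% and 18.9%, 7.41% and 11.6%, and 17.5% and 15.2%, beside 10.1%. In both motifs the empty control replicate 1 list was lowest, below the windows, and the peaks were also richer in GC than the arm as a whole in the other 5 lists. A match is a string of letters and not a binding site.

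Long arm regions called in 3 or more lists were few, and all 4 were on chromosome 22. PLXNB2 encodes plexin B2, a receptor for semaphorins. Its start region chr22:50307176-50308520 scored 57.55 and 78.32 in CRLM1-OE, 67.02 in empty control replicate 2, and 64.62 and 62.94 in the antisense control, and empty control replicate 1 had no peak there. ATF4 encodes the transcription factor of the integrated stress response. Its start region chr22:39519888-39521430 scored 78.29 and 107.83 in CRLM1-OE and 54.32 in antisense control replicate 2, and the region chr22:39522498-39524578 just past its end scored 207.26, 211.54 and 74.48 in the same lists. Neither was called in an empty control list. The region chr22:42614971-42616557 holds the spliceosomal RNU12 and overlaps CYB5R3, which encodes a cytochrome b5 reductase. It lies just upstream of POLDIP3, which encodes a protein that binds a DNA polymerase subunit. This region scored 55.03 and 59.48 in CRLM1-OE and 79.71 in empty control replicate 2.

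The pair of CRLM1-OE lists shared 5 regions that no control list had, all on the long arms. They were 5 of 825 regions on these chromosomes (0.606%), beside 82 of 15464 regions on all 24 chromosomes (percent called, 0.53%), so the count here was near the background. As shares of the regions of each list, this was 1.75% in replicate 1 and 4.95% in replicate 2, beside 1.90% and 2.60% on all 24 chromosomes. GAS2L1, which links microtubules and actin, had the highest scores among the 5 regions, 214.67 and 164.93 at chr22:29300958-29302572 in its upstream sequence. RPL3, a protein of the large ribosomal subunit, had scores of 75.45 and 95.23 at chr22:39318433-39320222, which also holds the small nucleolar RNA gene SNORD43. The region chr22:41430767-41431724, whose midpoint lies in the exon of a long non-coding RNA gene, scored 52.44 and 80.68. The region chr21:45506066-45507218 at COL18A1, which encodes a basement membrane collagen, and SLC19A1, a folate carrier, scored 96.21 and 52.68.

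Lists of the control groups also shared regions of their own, though the lists differ in length and these counts cannot be set against each other. The empty control lists alone shared 3 of the 825 regions here (0.364%), beside 11 of 15464 regions on all 24 chromosomes (percent called, 0.0711%). As shares of the regions of each list, this was 8.82% in replicate 1 and 0.890% in replicate 2, beside 0.679% and 0.425% on all 24 chromosomes. The region chr22:19508193-19508986 in CDC45, a replication factor, scored 63.0 and 62.6, percentiles 74.3 and 67.9 of the lists. The region chr21:33172004-33172848 near LINC01548 was at 51.1 and 50.17, among the lower scores of both lists (percentiles 11.8 and 1.53), and the intergenic chr21:36607947-36608891 at 54.94 and 60.91 (43.7 and 63.1). The antisense control lists alone shared 1 of the 825 regions here (0.121%), beside 10 of 15464 regions on all 24 chromosomes (percent called, 0.0647%). Per list, this was 1.39% of the regions of replicate 1 and 1.27% of those of replicate 2, beside 0.443% and 0.450% on all 24 chromosomes. The region chr22:43186604-43188275, at the start of TTLL12, a member of the tubulin tyrosine ligase-like family, scored 70.95 and 58.24. Counting peaks anywhere from 5 kb before a gene to its end, 40 genes had peaks in each of the CRLM1-OE lists, 14 in each of the empty control lists and 9 in each of the antisense control lists, of 2343 annotated genes. That was 1.71%, 0.598% and 0.384%, beside 1.13%, 0.326% and 0.447% of the 62663 genes on all 24 chromosomes (percent called). As shares of the genes in each list these were 19.1% and 37.0% in CRLM1-OE, 50% and 7.29% in the empty control, and 14.1% and 12.9% in the antisense control. Within 1 kb of the start these became 11, 0 and 2. Genes with a peak there numbered 38 and 40 in the CRLM1-OE lists, 1 and 26 in the empty control and 16 and 18 in the antisense control. With 1 such gene in empty control replicate 1, the 3 counts cannot be set against each other, and no share over all 24 chromosomes is given for them. Protein-coding genes with such a peak in both lists included RPL3, ATF4, POLDIP3 and PLXNB2 in CRLM1-OE, and TTLL12 and PLXNB2 in the antisense control.

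The excess of empty control replicate 2 also reached many genes, mostly away from their starts. Of the 667 protein-coding genes on these chromosomes, 125 and 73 had a peak in the CRLM1-OE lists, 16 and 105 in the empty control lists, and 41 and 45 in the antisense control lists, so 15.7% in empty control replicate 2 and 18.7% in CRLM1-OE replicate 1. Those 2 lists had 51 genes in common, which was 48.6% of the first and 40.8% of the second. A peak at the start was found for 15 and 25 of these genes in CRLM1-OE, 0 and 10 in the empty control, and 13 and 11 in the antisense control, with 2 in common between empty control replicate 2 and CRLM1-OE replicate 1. In all, 257 of the 667 had a peak in at least 1 list (percent called, 38.5%), which is the share to read the gene lists below against. Several genes held rows of peaks in empty control replicate 2. PCBP3, which encodes a poly(C)-binding protein with KH domains like hnRNPK itself, had 9 peaks there, 5 and 1 in CRLM1-OE and 2 in antisense control replicate 2. SYN3, which encodes a synapsin and was picked after its values were seen, had 8 there, 3 in CRLM1-OE replicate 1 and 2 in empty control replicate 1. HIRA, a histone chaperone, had 7 there, 2 in CRLM1-OE replicate 1 and 1 in antisense control replicate 2. The genes of the lists were chosen with earlier results of these data known.

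Of 20 genes for RNA processing and translation, 11 (55%) had a peak in at least 1 list, beside 38.5% of all protein-coding genes here, with 6 and 5 in CRLM1-OE, 0 and 3 in the empty control, and 2 and 4 in the antisense control. Besides RPL3 and PCBP3, RRP1B, a nucleolar protein, was the only one with peaks in each CRLM1-OE list. ADARB1, an RNA-editing adenosine deaminase, had 2 peaks each in CRLM1-OE replicate 1 and empty control replicate 2, and SON, a splicing cofactor, had 1 at its start in CRLM1-OE replicate 2. Peaks were also called at the splicing factors SF3A1 (CRLM1-OE replicate 1), SNRPD3 (antisense control replicate 2) and RBFOX2 (empty control replicate 2 and antisense control replicate 1), the silencing factor TNRC6B and the translation regulator EIF4ENIF1.

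Of 15 genes for apoptosis and stress response, 9 (60%) had a peak in at least 1 list, beside the same 38.5%, with 5 and 4 in CRLM1-OE, 0 and 1 in the empty control and 1 in each antisense control list. Only ATF4 and GAS2L1 had peaks in more than 1 list. GAS2L1, described above as linking microtubules and actin, is counted in both CRLM1-OE numbers. The pro-apoptotic genes BID and BIK, the checkpoint kinase gene CHEK2, the thioredoxin reductase gene TXNRD2 and the nuclear receptor gene PPARA each had 1 peak in 1 CRLM1-OE list, the apoptosis regulator BCL2L13 had 1 in antisense control replicate 1, and the oxidative stress repressor BACH1 had 1 in empty control replicate 2. Each of these 7 was away from the gene start.

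Of 23 adhesion, matrix and epithelial genes found on these chromosomes, 11 (47.8%) had a peak, beside 38.5%, with 7 and 3 in CRLM1-OE, 3 and 6 in the empty control, and 3 and 3 in the antisense control. COL18A1 had 2 and 2 peaks in CRLM1-OE, 3 in empty control replicate 2 and 1 in antisense control replicate 2. TIAM1, an activator of the GTPase Rac, had peaks in both CRLM1-OE and both antisense control lists and in no empty control list. The adhesion gene DSCAM, the integrin gene ITGB2, the protease inhibitor gene TIMP3 and the parvin gene PARVB each had peaks in 3 lists, including CRLM1-OE replicate 1 and empty control replicate 2, and the adhesion genes NCAM2 and JAM2, the myosin gene MYH9, PARVG and the cadherin gene CELSR1 had a peak in 1 list each.

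Of 22 genes for cancer signalling and transcription, 13 (59.1%) had a peak, beside 38.5%, with 6 and 3 in CRLM1-OE, 0 and 3 in the empty control, and 4 and 4 in the antisense control. RUNX1, a haematopoietic transcription factor, had 2 and 1 peaks in CRLM1-OE and 2 in antisense control replicate 1. ERG, an ETS family factor, had 1 peak in CRLM1-OE replicate 2 and in each antisense control list. BCR, the breakpoint cluster gene, had 3 peaks in empty control replicate 2 and 1 at its start in CRLM1-OE replicate 1. Genes with 1 peak in 1 list included NRIP1, DYRK1A and SREBF2 in the antisense control, NF2, MAFF, CBX7 and PDGFB in CRLM1-OE, and SIM2 in empty control replicate 2. Of 18 short arm and pericentromeric genes found, not all of them protein-coding, 5 (27.8%) had a peak, beside 38.5%. There were 3 and 0 in CRLM1-OE, 1 and 4 in the empty control, and 1 in each antisense control list. The 5 were LIPI, GAB4, HDHD5, ADA2 and CECR2, each with peaks in 2 lists, and LIPI lies just beyond the 14 Mb boundary. No gene list was tested, and gene length was not taken into account.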

How the data were processed

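hnRNPK ChIP-seq was done with 6 IP and 6 input libraries of HCT116 cells, and 1 peak list per IP library was used. The authors used cutadapt to trim reads, Bowtie2 to align them to GRCh38 and MACS2, by the methods of the study, to call peaks against the input. The deposited score of each peak is the authors' own value. No score was under 50, the settings of the caller are uncertain, and scores were compared only by rank within a list or given as deposited. The number of other numeric columns left unused was 0. Of 16768 peaks, 16214 lay on the 24 chromosomes.

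Starts were counted from 1. Genes came from GENCODE 44 and sequence from hg38, read with pysam 0.24.0 in Python 3.11.15. Copies of 64-base windows were counted every 16 bases on both strands, and regions were aligned with minimap2 2.31. The reference was not soft-masked, so the planned repeat-masked share was not computed, and copy number and tandem period stand in for it. Groups were compared as means of 2 lists by exact permutation of the library labels. Measures of peaks were compared within the 6 lists by an exact sign-flip permutation test, both two-sided with Benjamini-Hochberg adjustment. The sample labels number the replicates without saying whether they are biological. The code was tested on simulated data and recovered 12 of 12 planted answers.

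The chromosomes, gene lists and tests were chosen with earlier results of these data known. Named genes are those at regions called in 3 or more lists, at regions called in both lists of 1 group only, at the highest-scoring peaks, and those of 5 gene lists with a peak. Some of these genes are not reported here. SYN3 was added after its number of peaks was seen. The study's rule for genes (body or 5 kb upstream) was followed. Alternatives were score filters, other boundaries, gene start distances, overlap rules and leaving out each list.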

Additional observations from a re-analysis of the deposited data

How the results depend on the processing

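No difference between groups could reach 0.05, and the reads behind each list are unknown, so peak numbers could not be scaled to depth. Leaving out each list in turn, CRLM1-OE minus empty control ran from -10.3 to -7.29 points for the short arm share and from 5.28 to 18.5 for the long arm TSS-proximal share, antisense minus empty control from -8.73 to -4.77 and from 11.04 to 16.4, and CRLM1-OE minus antisense control from -4.04 to -0.0858 and from -8.42 to 4.79. The last was 4.79 without CRLM1-OE replicate 1, 0.854 without antisense control replicate 2 and 2.95 with gene starts within 5 kb, and the short arm difference of the same groups was 3.39 with the 1000 highest-scoring peaks. With peaks above the median score, CRLM1-OE minus empty control and antisense minus empty control were -17.2 and -14.1 for the short arm share. The cause was not tested.

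With a replicate block, which pairs lists of the same number, the 6 group differences were equal to those reported (short arm share -8.81, -2.06 and -6.75, TSS-proximal share 11.9, -1.82 and 13.7) and the smallest exact p was 0.50. The numbers are not said to mark a shared batch, and a correlation of paired deviations could not be formed from 1 value per list.

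With long arm peaks only, the differences from the other chromosomes became -0.716 points for multi-copy share, -23.9 bp for width and -1.60 points for 5-base period share (exact permutation p = 0.0313 for each of the 3, unadjusted), and -1.94 for score percentile (exact p = 0.563), and with peaks above the median score the width difference became 1.92 bp. With 5 lists the smallest exact sign-flip p is 0.0625, so no within-list result could pass when a list was left out. The values then ran from 4.88 to 5.97 (GC) and 6.30 to 7.89 (5-base period) against the other chromosomes. Between the arms they ran from -8.46 to -6.35 (TSS), 4.62 to 5.89 (multi-copy), 185.3 to 230.8 bp (width), 33.1 to 37.7 (score percentile), -5.02 to -3.56 (GC) and 48.5 to 55.4 points (5-base period). Regions called in 2 or more lists numbered 32 to 46 with a list left out, the fewest without empty control replicate 2. Genes with a peak in both lists of a group fell from 40, 14 and 9 to 11, 0 and 2 at gene starts, and to 20, 3 and 2 when both lists had to share a region. The repeat-masked share was not run, because the reference is not soft-masked.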
